A study of Rattus norvegicus with 15 samples.

Results

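The genes described here build, anchor or cut the extracellular matrix of the liver: collagens, laminins, integrins, matrix proteases and their inhibitors, a few further matrix proteins, and the cytoskeletal genes Acta2 and Vim. A probe was taken when its single platform gene symbol began with the name of one of these families or was on a short list of matrix genes, whatever its values. The rule found 53 probes for 51 genes among 3757 probes, of which 3440 carried 1 symbol and covered 3400 genes. Vcan had 3 probes and every other gene had 1. Des, also on the list, had no probe. The members were 10 collagens, 3 laminins, 9 probes of 7 other matrix proteins, the crosslinking enzyme Lox, 5 integrins, 10 matrix metalloproteinases, 10 ADAM and ADAMTS proteases, 3 tissue inhibitors of metalloproteinases, and Acta2 and Vim.

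Liver RNA of male rats was compared in 3 groups of 5 arrays each, all after 70 weeks on the respective diet. Control samples were normal liver of rats on a basal diet. Noncancerous samples were cirrhotic liver next to carcinomas, and carcinoma samples were hepatocellular carcinomas, both from rats on a diet without choline in which defined L-amino acids replace protein. The strain was Fischer344, given as Fischer for control 1. The labels do not say whether a carcinoma and a cirrhotic sample with the same number came from 1 rat, nor that samples of a group are separate animals. Diet and disease differ together between control and the other groups, so they cannot be told apart there.

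Fibrillar collagens (types I, III and V) form the scar of a cirrhotic liver. They are secreted mainly by hepatic stellate cells that have become myofibroblasts, and lysyl oxidase crosslinks them into stable fibres. Laminins and some non-fibrillar collagens belong to basement membranes, integrins bind cells to both kinds of matrix, and metalloproteinases cut the matrix under the restraint of tissue inhibitors. Tissue pieces were measured whole, so fewer cells of a type and less RNA per cell cannot be told apart.

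The deposited values are ratios of each probe to its own median over the 15 arrays. They give differences between samples but no level, so genes cannot be ranked by abundance. Values below are log2 of these ratios after quantile normalization, and differences are in log2 units. The deposited array medians lay between 0.919 and 1.02. Control 1 and noncancerous 1 stood apart, with 229 and 209 probes at the lowest deposited ratio of 0.01 against 0 to 76 on the other 13 arrays. Of the 795 member values, 5 lay at that limit: Itgb1, Adam10 and Adam18 in control 1, Col18a1 in control 3 and Col2a1 in noncancerous 5. Over the log2 ratios of all probes, arrays of 1 group correlated with r between -0.354 and 0.539, a description across probes that are not independent. Ratios to a probe's own median hold no differences in level between probes, so these r cannot be read as the reproducibility of expression levels.

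Promoter sequences are shown for 3 members with the RefSeq table's 250 bases before the transcript start (assembly GRCr8): Col5a2, whose cirrhotic and control values did not overlap, Vim, which lay lower in the same comparison, and Col1a2, a chain of the chief scar collagen. Capitals mark matches to the TATA box (TATAAA), the CCAAT box (CCAAT) and the GC box (GGGCGG), searched on both strands together with the AP-1 site (TGANTCA). Each sequence runs 5′ to 3′ on the strand of its gene.
Col5a2, chr9:55090152-55090401, minus strand: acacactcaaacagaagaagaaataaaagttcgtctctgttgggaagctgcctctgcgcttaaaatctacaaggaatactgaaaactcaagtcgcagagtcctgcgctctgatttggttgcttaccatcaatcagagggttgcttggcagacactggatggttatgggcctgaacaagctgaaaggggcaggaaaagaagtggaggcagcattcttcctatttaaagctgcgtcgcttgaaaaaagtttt
Vim, chr17:81577011-81577260, plus strand: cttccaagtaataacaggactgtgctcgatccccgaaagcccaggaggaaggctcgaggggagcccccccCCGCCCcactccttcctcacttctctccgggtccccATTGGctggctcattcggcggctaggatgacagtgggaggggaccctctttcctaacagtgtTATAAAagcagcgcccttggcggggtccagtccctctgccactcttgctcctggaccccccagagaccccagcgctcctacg
Col1a2, chr4:33518307-33518556, plus strand: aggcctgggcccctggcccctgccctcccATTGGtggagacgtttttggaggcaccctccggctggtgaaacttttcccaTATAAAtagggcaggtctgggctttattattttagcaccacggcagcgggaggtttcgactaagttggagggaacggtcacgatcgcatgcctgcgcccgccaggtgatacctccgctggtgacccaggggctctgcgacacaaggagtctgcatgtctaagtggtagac
In Vim, TATAAA stood 82 to 77 bases before the start, a CCAAT on the opposite strand (read as ATTGG) 144 to 140 bases before it, and a GGGCGG on the opposite strand (read as CCGCCC) 180 to 175 bases before it. In Col1a2, TATAAA stood 170 to 165 bases and an opposite-strand CCAAT 221 to 217 bases before the start. The Col5a2 window held none of the 4 motifs. Of the 51 member genes, 31 had a promoter in the table. TATAAA was present in 10 of these 31 (32.3%) against 12.9% of 33469 promoters, CCAAT in 12 (38.7%) against 34.0%, GGGCGG in 17 (54.8%) against 30.5%, and TGANTCA in 5 (16.1%) against 6.3%. These matches describe the letters only.

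Cirrhotic liver was first compared with normal liver, which asks how the matrix genes differ in the scarred organ. Structural matrix genes lay lower in cirrhotic liver: 19 of 22 probes, 9 of 10 collagens and 3 of 3 laminins had a difference below 0. The median difference was -0.73 over the collagens, -0.48 over the laminins and -0.10 over the other matrix proteins, against 0.02 over all probes. Lox, Itgb1 and Mmp13 had the highest differences among members, between 0.98 and 1.15. After Benjamini-Hochberg adjustment over all probes, limma called 0 of 53 members and 0% of all probes, and the smallest adjusted p among members was 0.307. At an unadjusted p under 0.05 stood 4 members (Col1a1, Col3a1, Col5a2 and Vim, each lower), against 9.64% of all probes, 5.62% of them lower. In 1 member, Col5a2, the groups did not overlap, against 1.65% of all probes. Both shares of members are near those of all probes.

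The differences in this comparison also ran along the probe numbering. The median over a collagen's probe and the 100 probes on either side of it lay below 0 for 9 of 10 collagens, between -0.90 and 0.69, and 6 of the 10 have numbers above 3000. Among all members, 42 of 53 lay on the same side of 0 as their neighbours. With this running median subtracted on each array, 5 of 10 collagens lay above 0 with a median of -0.01, and 12 of 22 structural matrix probes lay above 0 with a median of 0.10. In that setting 3 members stood at an unadjusted p under 0.05 (Adam17, Col18a1 and Col5a2), against 4.23% of all probes, and in 0 did the groups not overlap, against 0.399%. The part of the numbering in these differences was not tested further. Without control 1 and noncancerous 1, 9 of 10 collagens lay below 0. Without noncancerous 5, the number below 0 was 6. On the values as deposited, where the median over all probes was 0.11, 8 of 10 collagens lay below 0, and the medians of the other matrix proteins (0.05) and the metalloproteinases (0.03) turned above 0.

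**Figure D1:**
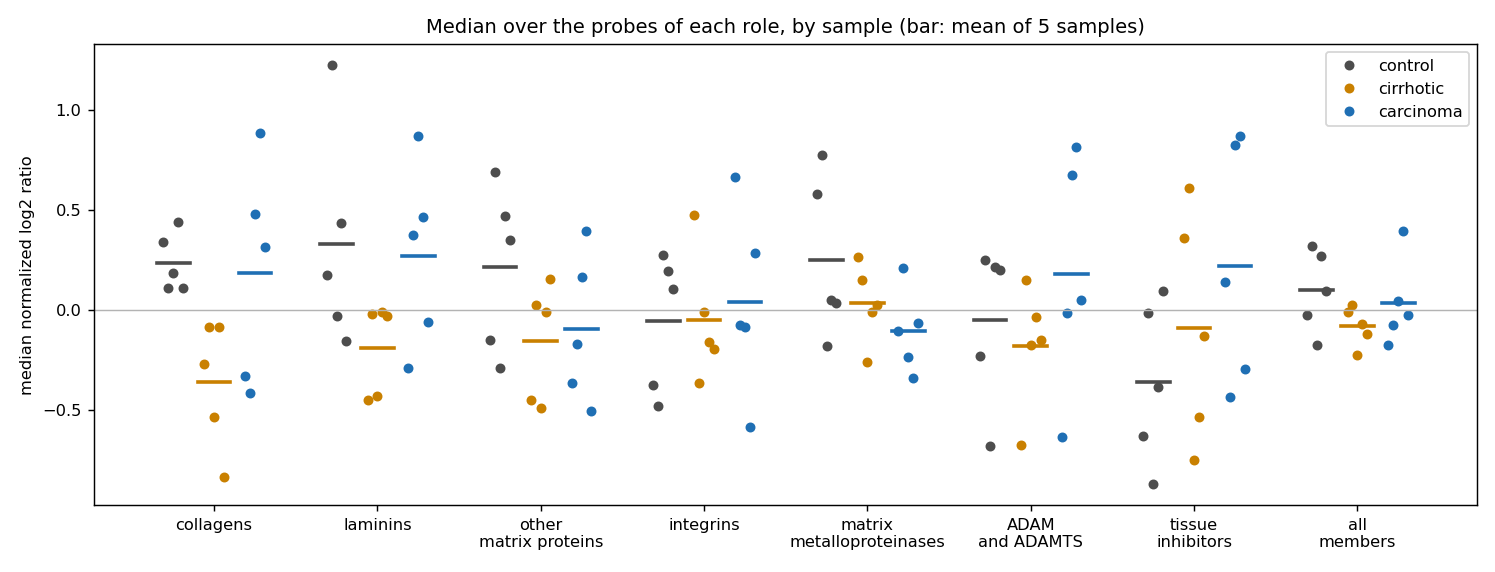
Median normalized log2 ratio over the probes of each role, with 1 point per sample and a bar at the mean of the 5 samples of a group. The collagen medians of cirrhotic samples (-0.83 to -0.08) lie below those of control samples (0.11 to 0.44), and those of carcinomas (-0.42 to 0.88) span both.

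The median over the 10 collagens was 0.24 ± 0.15 (SD, n = 5) in control, -0.36 ± 0.32 (SD, n = 5) in cirrhotic and 0.18 ± 0.55 (SD, n = 5) in carcinoma samples. With the running median removed, these sample medians overlapped, from -0.30 to 0.15 in control, -0.57 to 0.23 in cirrhotic and -0.40 to 0.62 in carcinoma samples.

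Among the fibrillar collagens, Col5a2, a chain of type V collagen that helps start new fibrils, had values of 0.74, 0.52, 0.47, 2.38 and 0.14 in controls 1 to 5. Its values were -0.86, -0.02, -1.58, -1.11 and -0.53 in cirrhotic samples 1 to 5, and -0.65, -0.12, 0.45, 0.52 and -0.31 in carcinomas 1 to 5. Every cirrhotic value lay below every control value, and carcinomas overlapped both groups. Cirrhotic minus control was -1.67 (95% interval -2.70 to -0.65, limma adjusted p = 0.307), -1.32 without control 4 and -0.88 with the numbering trend removed. Carcinoma minus control was -0.87 (-1.90 to 0.15) and carcinoma minus cirrhotic 0.80 (-0.23 to 1.82).

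Col3a1 encodes type III collagen, a thin fibril of early scar. It had values of -0.11, 0.64, -0.25, 0.38 and 0.72 in control, -1.46, 0.02, -1.64, -0.76 and -1.47 in cirrhotic, and -0.23, 0.60, 0.51, 2.72 and 0.71 in carcinoma samples, in order of replicate number. Cirrhotic samples 1, 3, 4 and 5 lay below every control, and carcinomas 2 to 5 lay above every cirrhotic sample. Cirrhotic minus control was -1.34 (-2.43 to -0.24, limma adjusted p = 0.421), and -0.90 with the trend removed. Carcinoma minus cirrhotic was 1.92 (0.83 to 3.02, limma adjusted p = 0.224), the highest among members, and 1.43 with the trend removed. The carcinomas did not stand apart from control, with a difference of 0.59 (-0.51 to 1.68) that was 0.12 without carcinoma 4.

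Type I collagen, the most abundant scar protein, is made of 2 chains encoded by Col1a1 and Col1a2, and their probes differed in pattern. Col1a1 had values of 0.33, 0.20, 0.23, -0.00 and -0.02 in control, -0.05, -1.04, -2.38, 0.13 and -1.48 in cirrhotic, and 0.50, 0.54, -0.60, -0.06 and 0.38 in carcinoma samples. Controls were tightly grouped and cirrhotic samples were spread, with 4 of 5 below every control. Its cirrhotic minus control difference was -1.11 (-2.22 to -0.01), and -0.45 with the trend removed, and carcinoma minus control was 0.01 (-1.10 to 1.11). Col1a2 had values of -0.91, -0.18, 0.74, -0.16 and 0.09 in control, -0.49, -0.62, 0.70, 0.25 and -0.96 in cirrhotic, and -1.98, -0.02, 1.77, 2.23 and 1.96 in carcinoma samples. Carcinomas 3, 4 and 5 were the highest of the 15 samples and carcinoma 1 the lowest. Its differences were -0.14 (-1.50 to 1.22) for cirrhotic minus control, 0.88 (-0.48 to 2.23) for carcinoma minus control and 1.02 (-0.34 to 2.37) for carcinoma minus cirrhotic. Carcinoma 1 decided much of them: without it the last 2 became 1.52 and 1.66, and carcinoma minus control was 0.51 without carcinoma 4. Whether the 2 chains differ from each other was not tested.

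In the other collagens every interval of the differences given here held 0 before the trend was removed. Col5a1 and Col5a3, further chains of type V collagen with neighbouring probe numbers (3380 and 3379), differed by -0.74 and -0.98 between cirrhotic and control liver, and by 0.12 and -0.11 with the trend removed. Col18a1, a basement membrane collagen whose end fragment is endostatin, was the 1 collagen above 0 there, at 0.94 (-0.34 to 2.22), and stood at 0.97 (-0.31 to 2.26) in carcinoma minus control. Its value in control 3, which enters both differences, lay at the lowest deposited ratio. With the trend removed Col18a1 stood at an unadjusted p under 0.05 in cirrhotic minus control, against 4.23% of all probes. Col12a1, which sits on the surface of fibrils, differed by -0.13 between cirrhotic and control liver (0.13 with the trend removed) and by 0.37 between carcinoma and control. Col10a1 and Col2a1 are known from cartilage. Col10a1 differed by -0.72 in cirrhotic minus control and by 0.12 with the trend removed, and Col2a1 varied so much within groups (pooled SD 2.48, wider than 99.8% of all probes) that its difference of -0.11 had an interval of -2.58 to 2.36.

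Of the basement membrane genes, Lamc1, the gamma chain of most laminins, differed by -1.18 (-2.48 to 0.12) between cirrhotic and control liver and by -0.87 with the trend removed. Lama3, a chain of epithelial laminin, differed by -0.48, and by -0.22 with the trend removed. Lamb2, a beta chain, differed by -0.06, and turned to 0.24 with the trend removed, so that 2 of 3 laminins lay below 0 there. Lamb2 was among the steadiest members, with a pooled SD of 0.38.

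Fibronectin, a glycoprotein that hepatocytes release into plasma and that fibroblasts lay down in matrix, is encoded by Fn1. Fn1 had values of -0.03, -0.43, -0.35, 0.59 and -0.66 in control, 1.0, -0.64, 0.16, -0.73 and -1.59 in cirrhotic, and 0.17, 0.13, 1.37, -0.04 and 1.0 in carcinoma samples. The groups overlapped, and the differences were -0.19 (0.10 with the trend removed), 0.70 (-0.35 to 1.76) and, for carcinoma minus cirrhotic, 0.89 (-0.17 to 1.94). Sparc, a collagen-binding protein of remodelling tissue, had values of 0.35, 0.02, 0.31, 0.36 and -1.30 in control, -0.75, -0.45, -1.02, 0.75 and -0.48 in cirrhotic, and 1.28, -1.11, -0.22, 1.96 and 0.84 in carcinoma samples. Carcinomas 1, 4 and 5 were the 3 highest of 15, but carcinoma 2 was the second lowest, and the differences were -0.34, 0.60 and 0.94. With the trend removed the first turned to 0.14 and the last was 0.44. For Sparc, carcinoma minus control was 0.25 without carcinoma 4 and 1.03 without carcinoma 2.

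Decorin and biglycan are small proteoglycans that bind collagen and TGF-beta. The decorin gene Dcn had values of -1.36, 0.69, -0.65, 1.15 and 0.66 in control, -0.87, 0.27, 0.41, -0.01 and 0.17 in cirrhotic, and -1.24, -0.74, -0.08, 0.46 and -1.64 in carcinoma samples. Its carcinoma minus cirrhotic difference was -0.64 (-1.83 to 0.54) and -1.10 with the trend removed, where it was at an unadjusted p under 0.05. The biglycan gene Bgn had values of -1.06, 2.11, -2.06, 0.79 and -0.80 in control, 0.85, -0.97, 0.22, -0.01 and 0.21 in cirrhotic, and 0.93, 0.74, -0.02, -0.12 and -0.50 in carcinoma samples. The control range held all other Bgn values, and its differences lay between 0.15 and 0.41. Single controls decided them: cirrhotic minus control was -0.20 without control 3 and 0.83 without control 2, and carcinoma minus control -0.05 and 0.98. Lum and Fmod, which encode the related proteoglycans lumican and fibromodulin, differed by -0.69 and -0.62 between cirrhotic and control liver, and by -0.42 and -0.29 with the trend removed.

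Acta2 and Vim encode smooth muscle actin, the classical label of activated stellate cells, and vimentin, the intermediate filament of mesenchymal cells. Acta2 had values of 0.94, 0.34, 0.22, -2.23 and -0.78 in control, -0.01, -1.09, 0.01, -0.55 and 0.16 in cirrhotic, and 0.36, 0.42, -0.02, -0.19 and -0.88 in carcinoma samples. All cirrhotic and carcinoma values lay inside the control range, and cirrhotic minus control was 0.00 (-1.20 to 1.20), an interval that leaves room for more than 1 log2 unit either way. Without control 4 the Acta2 difference was -0.49. Vim had values of -0.10, 1.85, 0.02, 0.93 and 0.07 in control, -0.65, -0.71, -0.23, -2.40 and -0.09 in cirrhotic, and 0.01, -0.75, -0.04, 0.56 and 0.23 in carcinoma samples. Cirrhotic samples 1 to 4 lay below every control. The difference was -1.37 (-2.47 to -0.27, limma adjusted p = 0.413), and -0.91 with the trend removed.

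**Figure D2:**
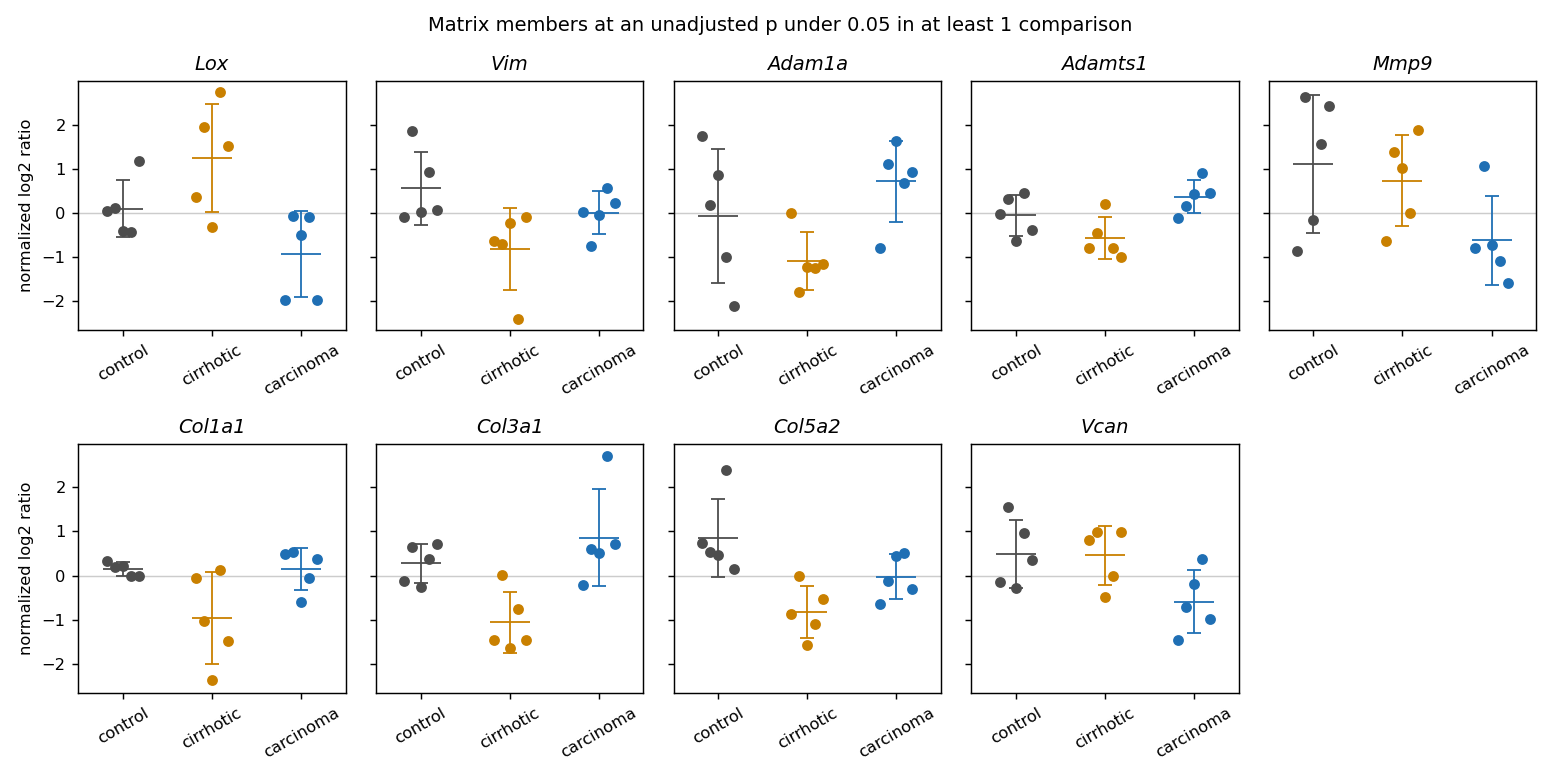
Normalized log2 ratio of each sample for the 9 member probes at an unadjusted p under 0.05 in at least 1 comparison, with the mean and SD of 5 samples per group. Lox is highest in cirrhotic samples (mean 1.24) and lowest in carcinomas (mean -0.93), while Col1a1, Col3a1 and Col5a2 are lowest in cirrhotic samples.

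Lox, the enzyme that oxidizes lysines so that collagen fibres can be crosslinked, had its highest mean in cirrhotic liver. Its values were 0.04, 0.12, -0.42, -0.44 and 1.17 in control, 0.36, 1.95, -0.33, 2.73 and 1.51 in cirrhotic, and -1.98, -0.07, -0.51, -0.09 and -1.98 in carcinoma samples. Cirrhotic samples 2, 4 and 5 lay above every control and every carcinoma, while samples 1 and 3 overlapped with control and sample 3 with carcinoma. Carcinoma minus cirrhotic was -2.17 (-3.40 to -0.94, limma adjusted p = 0.224), the lowest among members. It was -1.76 with the trend removed and between -2.63 and -1.82 when 1 sample was left out in turn. Cirrhotic minus control was 1.15 (-0.08 to 2.37) and carcinoma minus control -1.02 (-2.25 to 0.21). With the trend removed these were 0.77 (-0.48 to 2.02) and -0.99.

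The receptors for this matrix were measured by the probes of 5 integrins. Itgb1 encodes the beta chain shared by most collagen, laminin and fibronectin receptors. It had values of -2.39, -1.97, 0.57, -0.77 and 0.71 in control, 0.47, 0.47, -0.01, -0.16 and 0.67 in cirrhotic, and 0.86, -0.07, -1.78, -1.24 and -0.25 in carcinoma samples. Cirrhotic samples kept within a narrow range inside the wide control range. Cirrhotic minus control was 1.06 (-0.33 to 2.45), and 0.62 without control 1, whose value lay at the lowest deposited ratio. Itgb4, part of an epithelial laminin receptor, differed by 0.54 (0.10 with the trend removed), Itgb7, a lymphocyte integrin chain, by 0.21, Itgad, a leukocyte integrin chain, by -0.45, and Itga7, a laminin receptor chain known from muscle, by -0.69. Over the 5 integrins the median differences were 0.21, 0.05 and -0.21 in the 3 comparisons, with 3, 3 and 1 above 0. The first turned to -0.04 and the second to -0.02 with the trend removed.

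Matrix metalloproteinases had no common direction in cirrhotic against control liver, with 4 of 10 above 0 and a median of -0.16. Mmp13, the main interstitial collagenase of rodents, differed by 0.98 (-0.07 to 2.04), among neighbours that also lay above 0, and by 0.36 with the trend removed. Mmp8, the neutrophil collagenase, differed by -0.88 (-1.96 to 0.20) and by -0.02 with the trend removed. Mmp2, the gelatinase of stellate cells, had values of 0.17, 0.39, -0.35, -0.38 and 0.39 in control, 0.50, -0.15, -0.52, 0.03 and -0.18 in cirrhotic, and -0.03, 0.37, -0.10, -0.71 and 0.76 in carcinoma samples. Its groups lay on top of one another with a pooled SD of 0.44, and its differences were -0.10 (-1.01 to 0.80), 0.02 (-0.89 to 0.92) and 0.12 (-0.78 to 1.03). With the trend removed the first was -0.53 and the last 0.53.

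Tissue inhibitors block metalloproteinases. Timp1, induced in many models of fibrosis, had values of 0.05, 0.31, -0.87, -0.39 and 0.10 in control, 0.17, 0.65, -0.75, -0.09 and -0.13 in cirrhotic, and -0.03, 0.51, -0.17, 0.87 and -0.30 in carcinoma samples. The groups overlapped, and its differences were 0.13 (-0.80 to 1.06), 0.34 (-0.59 to 1.27) and 0.21 (-0.72 to 1.14). Timp2 had values of -0.72, -0.08, 0.09, -0.29 and 0.02 in control, 0.36, 0.41, -0.00, -0.53 and -0.28 in cirrhotic, and 0.14, -1.63, 1.10, 1.99 and -1.08 in carcinoma samples. Carcinomas scattered to both sides of the other groups, with 2 values above and 2 below all of them, and carcinoma minus control for Timp2 was 0.30, or -0.18 without carcinoma 4. Timp3, which binds to matrix, differed by 0.23, 0.70 (-0.39 to 1.80) and 0.47. The 3 inhibitors lay above 0 in all 3 comparisons, but with the numbering trend removed all 3 lay below 0 in cirrhotic minus control.

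**Figure D3:**
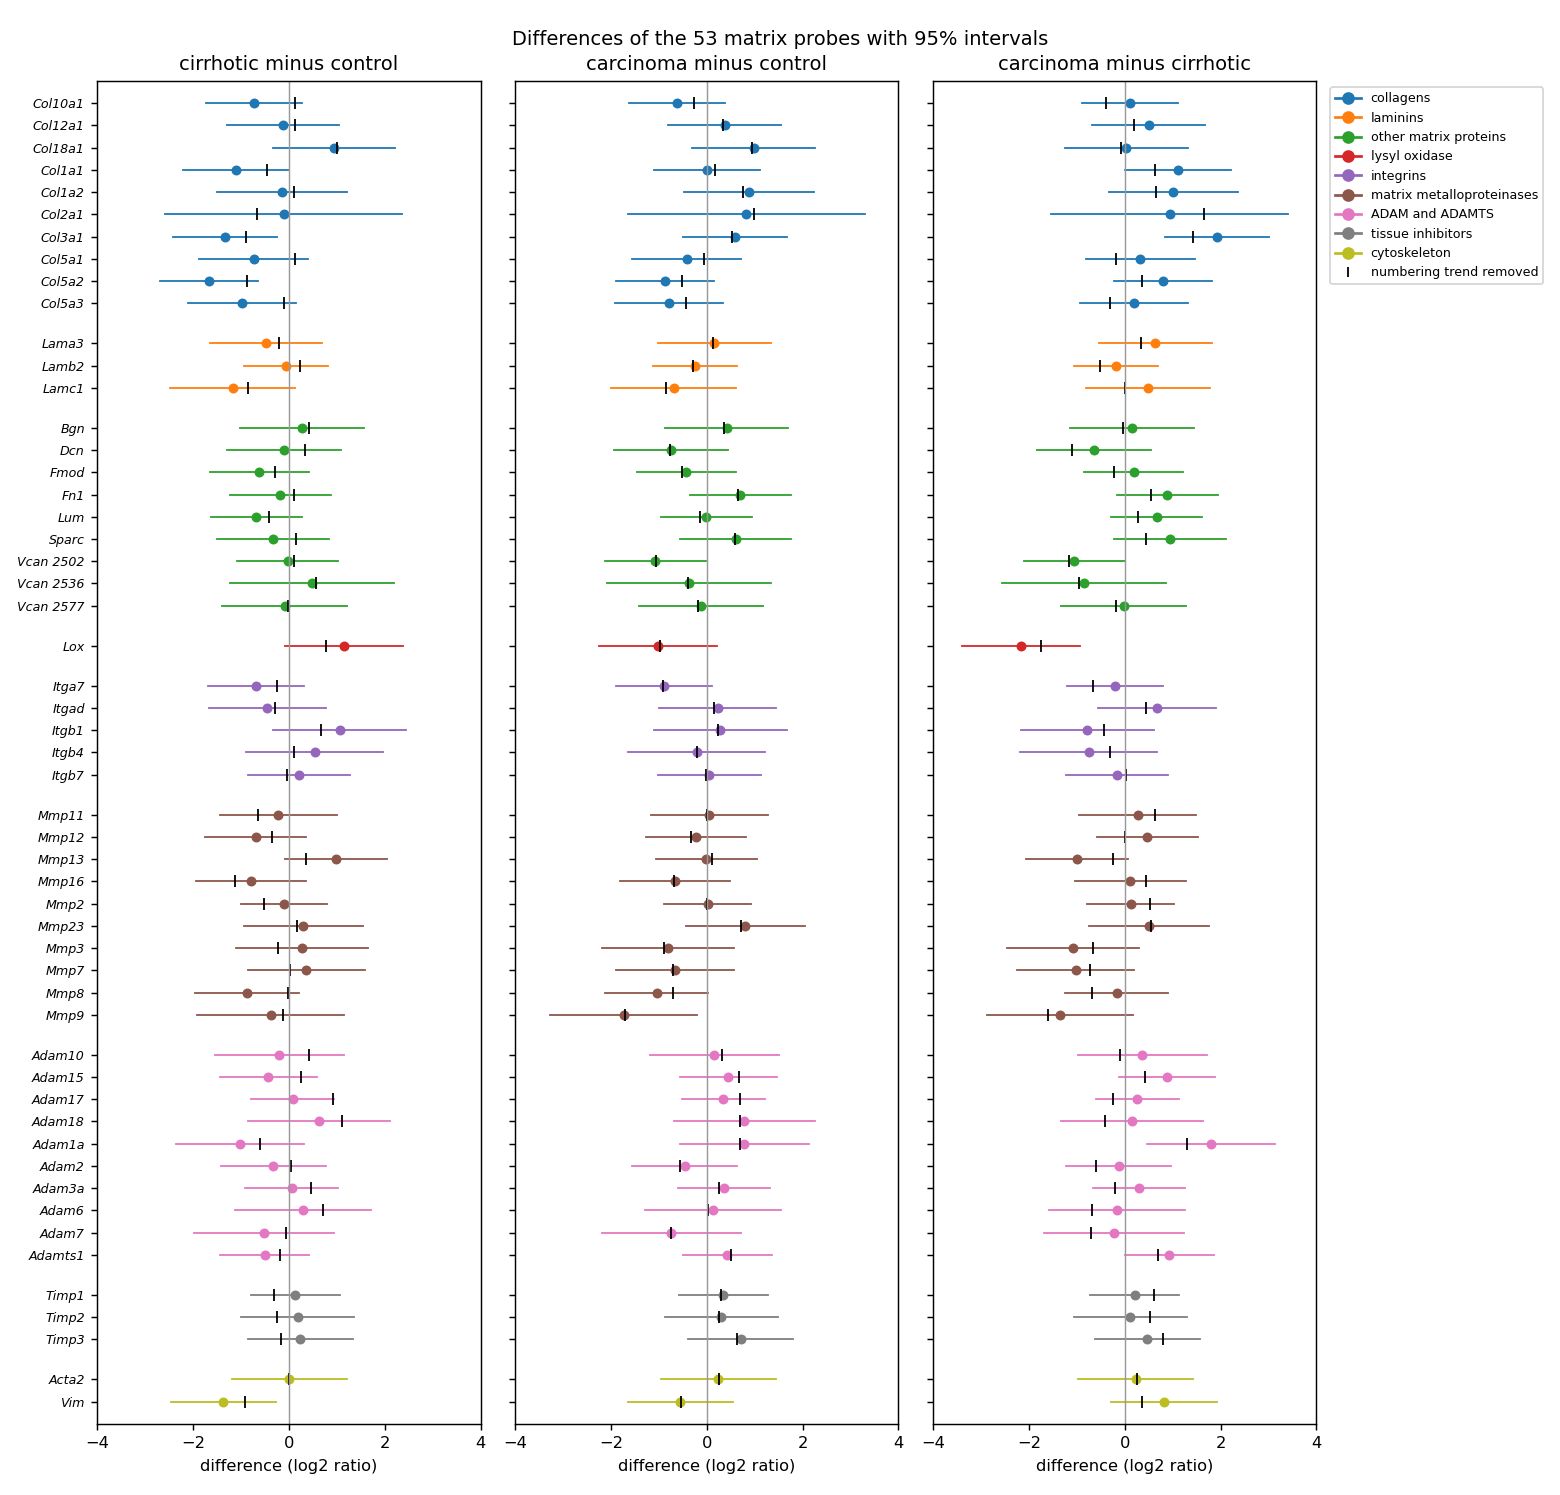
Difference in normalized log2 ratio of the 53 member probes in the 3 comparisons, grouped by role, with 95% intervals from limma and a black tick at the difference after the running median over neighbouring probe numbers was removed. In cirrhotic minus control 9 of 10 collagens lie below 0, and the black ticks of 5 lie above 0.

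Carcinomas were next compared with normal liver. The matrix genes as a whole were balanced, with 28 of 53 above 0 and a median of 0.02 against 0.00 over all probes. Mmp9 and 1 Vcan probe had the lowest differences. Col18a1 had the highest, at 0.97, with its value in control 3 at the lowest deposited ratio. Collagens split into 6 above and 4 below 0 with a median of 0.19. Col1a2 and Col3a1 lay above 0, while Col1a1 stood at 0.01 and changed sign in 8 of 27 alternative settings. The type V chains lay below 0, among neighbouring probes with medians between -0.42 and -0.41. Of the 10 metalloproteinases 7 lay below 0, with a median of -0.45, and of the 10 ADAM and ADAMTS genes 8 lay above, with a median of 0.35. Limma called 0 of 53 members after adjustment and 0% of all probes. At an unadjusted p under 0.05 stood 2 members, both lower, against 7.4% of all probes, 3.75% of them lower, and in 0 members did the groups not overlap, against 1.89% of all probes. With the numbering trend removed, 2 metalloproteinases and 8 ADAM and ADAMTS genes lay above 0. In that setting the same 2 members stood at an unadjusted p under 0.05, against 8.17% of all probes, and the groups of Adam17 and of the same Vcan probe did not overlap, against 2% of all probes.

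Mmp9, the gelatinase made largely by inflammatory cells, had values of -0.86, 2.62, -0.17, 1.56 and 2.41 in control, -0.64, 1.38, 1.02, -0.01 and 1.89 in cirrhotic, and -0.79, 1.06, -0.72, -1.09 and -1.59 in carcinoma samples. Carcinomas 1, 3, 4 and 5 lay low, and control 1 lay among them. Carcinoma minus control was -1.74 (-3.27 to -0.21, limma adjusted p = 0.626), between -2.20 and -1.36 when 1 sample was left out, and -1.72 with the trend removed. Without control 1 and noncancerous 1 it was -2.08. Carcinoma minus cirrhotic was -1.35 (-2.88 to 0.18). Other metalloproteinases below 0 in carcinoma were Mmp8 at -1.05 (-2.13 to 0.03), the stromelysin Mmp3 at -0.81 (-2.18 to 0.56), the membrane-bound Mmp16 at -0.67, the matrilysin Mmp7 at -0.66, and the macrophage elastase Mmp12 at -0.23. In carcinoma minus control the neighbours of Mmp8 had a median of -0.40. Those of Mmp3, Mmp16, Mmp7 and Mmp12 had medians between 0.01 and 0.10. Mmp23 was highest, at 0.80 (-0.44 to 2.05), and Mmp11, the stromelysin first known from tumour stroma, differed by 0.05.

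Versican, a large proteoglycan of provisional matrix, was measured by 3 probes that did not give the same result. Probe 2502 of Vcan had values of -0.15, 1.55, -0.29, 0.95 and 0.35 in control, 0.80, 0.99, -0.49, -0.01 and 0.99 in cirrhotic, and -1.46, -0.71, -0.19, 0.37 and -0.99 in carcinoma samples. Carcinomas 1, 2 and 5 lay below all other samples. Its carcinoma minus control difference was -1.08 (-2.13 to -0.03, limma adjusted p = 0.656) and its carcinoma minus cirrhotic difference -1.05 (-2.10 to 0.00). Probe 2536, one of the most variable members (pooled SD 1.61), differed by -0.37 (-2.08 to 1.34) from control and by -0.85 from cirrhotic liver. Probe 2577 differed by -0.12 (-1.42 to 1.18) and -0.03.

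The ADAM family joins sheddases of the cell surface and proteins known mainly from sperm. Adam17 and Adam10, the chief sheddases, differed by 0.34 (-0.53 to 1.21) and 0.16 (-1.19 to 1.51) between carcinoma and control, and Adam15 by 0.45 (-0.56 to 1.46). With the trend removed these were 0.68 (-0.11 to 1.47), 0.32 and 0.67. In cirrhotic minus control Adam17 went from 0.08 to 0.92 (0.13 to 1.72) when the trend was removed. Adam17 had the smallest spread within groups among members, with a pooled SD of 0.34, and only 0.106% of all probes had a smaller one. The 6 ADAM genes known from testis and epididymis (Adam1a, Adam2, Adam3a, Adam6, Adam7 and Adam18) had a median pooled SD of 1.17 against 0.968 over all probes and 0.548 over the other 4 genes of the family. Ratios show no level, so whether these 6 were detected in liver could not be read from the table.

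Carcinomas were last compared with cirrhotic liver from rats on the same diet. All 10 collagens lay above 0 in carcinoma, with a median of 0.65, and the structural matrix as a whole had 17 of 22 probes above 0 with a median of 0.40. Lox and Mmp9 stood on the other side. Over the members 35 of 53 lay above 0, with a median of 0.19 against -0.02 over all probes. Limma called 0 of 53 members after adjustment and 0% of all probes, with a smallest adjusted p among members of 0.224. At an unadjusted p under 0.05 stood 5 members, Adam1a, Adamts1, Col1a1 and Col3a1 higher and Lox lower, against 13.2% of all probes, 6.95% higher and 6.28% lower. In 0 members did the groups not overlap, against 2.71% of all probes.

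The numbering trend was present here as well, in the opposite direction: 9 of 10 collagens had neighbours above 0. With the trend removed, 6 of 10 collagens lay above 0 with a median of 0.28, and the median over all members was -0.05. In that setting 5 members (Col3a1, Dcn, Lox, Mmp9 and Vcan) stood at an unadjusted p under 0.05, against 10.2% of all probes, and in 1, Adamts1, the groups did not overlap, against 1.49%. The cirrhotic samples enter both comparisons, so the low collagens of the first and the high collagens of the third share the same 5 arrays. On the values as deposited 9 of 10 collagens lay above 0, and without control 1 and noncancerous 1 all 10 did. Leaving out 1 sample in turn gave 6 to 10.

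**Figure D4:**
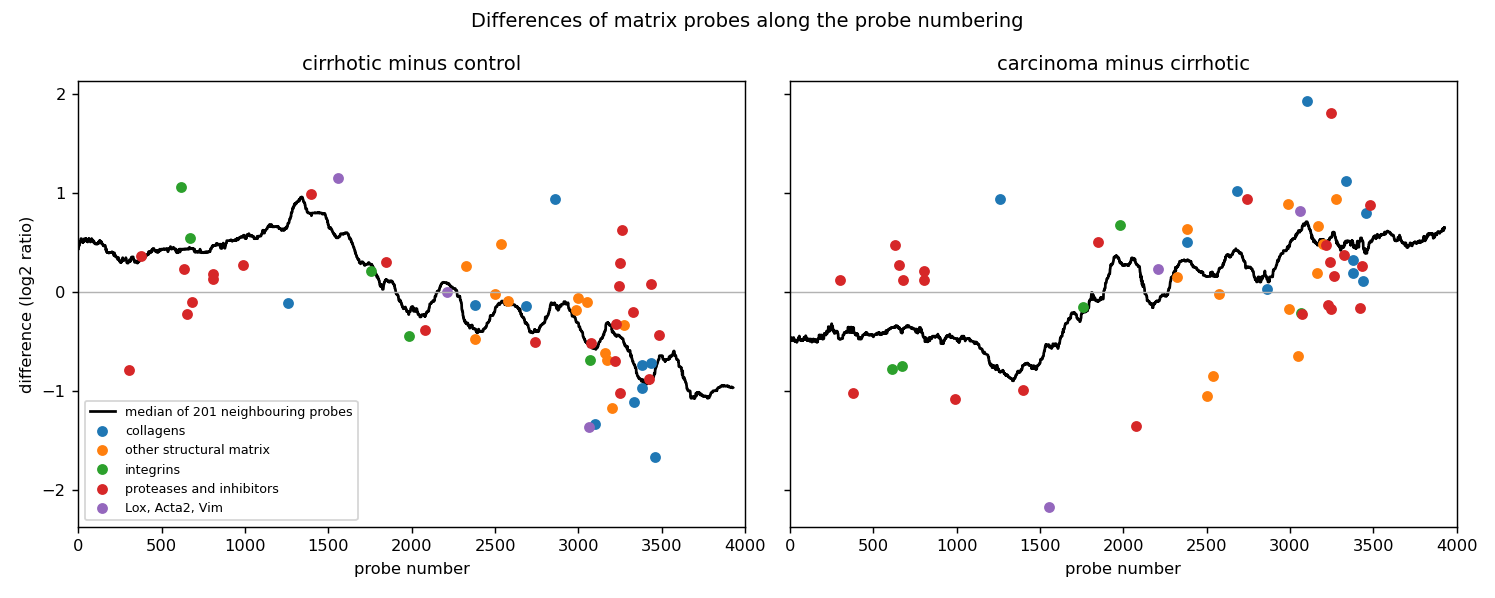
Difference of each member probe against its number in the array's probe set, for cirrhotic minus control and carcinoma minus cirrhotic, with the median over each probe and the 100 on either side as a line. Of the 53 members 24 have numbers above 3000, where the line lies below 0 in the first panel and above 0 in the second.

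Col1a1 differed by 1.12 (0.01 to 2.22, limma adjusted p = 0.372) between carcinoma and cirrhotic liver, and by 0.63 with the trend removed. The proteases with the highest differences were Adam1a and Adamts1. Adam1a, a sperm surface protein gene, had values of 1.74, 0.17, 0.86, -1.0 and -2.12 in control, -0.01, -1.79, -1.24, -1.24 and -1.16 in cirrhotic, and -0.79, 1.11, 1.64, 0.68 and 0.93 in carcinoma samples. Carcinomas 2 to 5 lay above every cirrhotic sample, while controls ran across the whole range. The difference was 1.80 (0.46 to 3.14, limma adjusted p = 0.26) and 1.29 with the trend removed. Adamts1, which cleaves versican and aggrecan, had values of -0.03, 0.32, -0.64, 0.44 and -0.39 in control, -0.79, -0.47, 0.21, -0.79 and -1.01 in cirrhotic, and -0.11, 0.16, 0.42, 0.90 and 0.44 in carcinoma samples. Cirrhotic samples 1, 2, 4 and 5 lay below every carcinoma. Its difference was 0.93 (0.00 to 1.86, limma adjusted p = 0.377) and 0.69 with the trend removed.

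Below 0 in carcinoma minus cirrhotic stood Mmp3 at -1.08 (-2.45 to 0.29), Mmp7 at -1.03 (-2.25 to 0.20) and Mmp13 at -1.0 (-2.05 to 0.06), all with neighbours below 0, and with the trend removed they were -0.67, -0.73 and -0.25. Itgb1 and Itgb4 differed by -0.78 and -0.75, and by -0.44 and -0.32 with the trend removed.

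Other genes of the matrix system were read from lists kept apart from the members. These lists were chosen with earlier results of these data known, so their counts are a description and no independent support. Their counts at an unadjusted p under 0.05 stand against 9.64% of all probes in cirrhotic minus control (4.02% higher, 5.62% lower), 7.4% in carcinoma minus control (3.65% higher, 3.75% lower) and 13.2% in carcinoma minus cirrhotic (6.95% higher, 6.28% lower). Of 7 measured genes of collagen processing, 6 lay above 0 in carcinoma minus control, and the 1 at an unadjusted p under 0.05 was P4hb, a subunit of the prolyl hydroxylase that stabilizes collagen, at 1.21. In cirrhotic minus control that gene was Serpinh1, the collagen chaperone, at 1.52, and in carcinoma minus cirrhotic there was 0. Of 20 other matrix genes, 3 lay lower at an unadjusted p under 0.05 in cirrhotic minus control and 0 higher, among them Mgp, an inhibitor of calcification, at -2.33, and Tnr, a tenascin, at -1.75. In carcinoma minus control 0 of these 20 did, and in carcinoma minus cirrhotic 2 lay higher and 1 lower. Of 14 probes of other receptors and focal adhesion genes, 1 lay lower in cirrhotic minus control (Ddr2, a collagen receptor, at -1.70), 0 in carcinoma minus control, and 1 higher (Bcar1, an adaptor of focal adhesions, at 2.05) and 1 lower (Vcam1, an adhesion molecule for leukocytes, at -1.65) in carcinoma minus cirrhotic. With the numbering trend removed, Serpinh1 was 0.87, Mgp -1.39, Tnr -1.21 and Ddr2 -1.55 in cirrhotic minus control. Acan, the other of the 3 lower matrix genes there, went from -1.37 to -0.41. The median over the 20 other matrix genes there turned from 0.01 to -0.35. In that setting P4hb was 1.24 in carcinoma minus control, and Bcar1 2.31 and Vcam1 -1.28 in carcinoma minus cirrhotic.

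A further list held genes of the plasminogen system, whose product plasmin can activate metalloproteinases, with protease inhibitors such as A2m and other regulators of matrix proteolysis. This list, too, was chosen with earlier results of these data known. Its 10 measured genes all lay above 0 in carcinoma, against control (median 0.72) and against cirrhotic liver (median 0.72), while 7 of 10 did so in cirrhotic minus control. At an unadjusted p under 0.05 stood 2, 3 and 0 of them in the same order, against 7.4%, 13.2% and 9.64% of all probes. Plau, which encodes urokinase, the protease that turns plasminogen into plasmin, differed by 2.65 against control, without overlap, and by 1.92 against cirrhotic liver. Bsg, a membrane protein that induces metalloproteinases, differed by 1.48 between carcinoma and control, and its groups did not overlap either, against 1.89% of all probes without overlap. Limma called 0 of these genes after adjustment, with smallest adjusted p of 0.459 and 0.234. With the numbering trend removed 9 of 10 lay above 0 against control and 10 of 10 against cirrhotic liver. In cirrhotic minus control 5 of 10 did, with a median of 0.01 in place of 0.27. Against control Plau was then 2.60 and Bsg 1.45. Of the 10 genes 1 was without overlap there, in place of 2, against 2% of all probes. Of 22 fibrogenic ligands, receptors and mediators, 2 lay higher at an unadjusted p under 0.05 in cirrhotic minus control and 0 lower, 1 higher in carcinoma minus control, and 4 lower in carcinoma minus cirrhotic. Of all probes 4.02% lay higher in the first, 3.65% higher in the second and 6.28% lower in the last. Pdgfra, a receptor for platelet-derived growth factor, differed by 1.77 in the first and by -1.29 in the last, with groups that did not overlap in either, against 1.65% and 2.71% of all probes. Pdgfrb, the receptor of stellate cell growth, differed by -1.53 in the last. With the numbering trend removed, Pdgfra was 1.38 in cirrhotic minus control and -0.93 in carcinoma minus cirrhotic, where Pdgfrb was -1.09.

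Marker lists of liver cell types were set beside these results. The 11 measured stellate cell and myofibroblast markers that are no members had sample medians from -0.70 to 0.34 in control, -0.24 to 0.34 in cirrhotic and -0.45 to 0.23 in carcinoma samples, with median differences of 0.08, -0.06 and -0.14. The 17 hepatocyte markers had median differences of -0.00, 0.49 and 0.24, the 8 endothelial probes -0.23, -0.13 and 0.04, the 4 Kupffer cell and macrophage markers -0.15, 0.84 and 1.40, the 5 bile duct markers -0.77, -0.36 and -0.18, and the 10 lymphocyte markers 0.33, 0.18 and 0.09. With the numbering trend removed, the median in cirrhotic minus control was 0.08 for the bile duct markers, -0.03 for the lymphocyte markers, -0.09 for the stellate cell markers, 0.02 for the hepatocyte markers, -0.27 for the endothelial probes and -0.25 for the macrophage markers. In carcinoma minus cirrhotic it turned to 0.17 for the stellate cell markers and -0.26 for the endothelial probes, and was 1.07 for the macrophage markers. Sample medians of the hepatocyte markers ran from -0.85 to 0.20 in control, -0.98 to 1.24 in cirrhotic and -0.45 to 1.19 in carcinoma samples. These markers had no common direction in carcinoma minus cirrhotic, with 9 above and 8 below 0. The lowest was Otc at -3.04 and the highest Ttr at 1.9, or -2.31 and 1.42 with the trend removed. At an unadjusted p under 0.05 stood 3 higher and 1 lower there, against 6.95% and 6.28% of all probes. The 4 macrophage markers, of 12 listed, had sample medians from -2.66 to 0.81 in control, -1.78 to 0.25 in cirrhotic and -0.21 to 0.98 in carcinoma samples. At an unadjusted p under 0.05 stood 0 of these 4 in carcinoma minus control and in carcinoma minus cirrhotic, against 7.4% and 13.2% of all probes. Because ratios carry no level, the presence of a cell type could not be checked, and the part of cell composition in the matrix differences was not tested.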

How the data were processed

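Liver RNA was measured on 15 arrays in 3 groups of 5, grouped by sample title. The values deposited by the authors are linear ratios of each probe to its own median over the 15 arrays, with a lower limit of 0.01. What array, dyes and software gave these ratios is not stated in the labels or files used here. The table has no detection call. Precision is limited by the number of arrays: the median 95% interval of a member in cirrhotic minus control reached 1.17 log2 units to either side.

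Ratios were quantile normalized between arrays and taken to log2. They were fitted with limma 3.58.1 in R 4.3.3 (lmFit and eBayes, a mean per group on all 15 arrays, 12 residual degrees of freedom, two-sided). The variance trend in eBayes ran over the mean log2 ratio of a probe, as the deposited values hold no intensity. P-values were adjusted by Benjamini-Hochberg over 3757 probes at 0.05. No member probe was filtered out, so all 53 were tested. Members were matched by symbol, and all 53 matched the RefSeq table (GRCr8) through their gene identifier. Values of every sample are given for a list of widely studied members where measured, and for members at an unadjusted p under 0.05 or without overlap in at least 1 comparison; from the other lists, at most 4 genes each, those with the smallest p. Members, lists and tests were chosen with earlier results of these data known. As the labels do not state that samples of a group are separate animals, p-values cover only the spread among these samples, which may be technical. The running median over each probe and the 100 probe numbers on either side was subtracted per array as an alternative. In a simulation, known shifts were added to shuffled deviations from group means, and only the mean estimate was checked against them. A fit of group means returns such shifts by construction, so this does not bear on the calls or the numbering trend. Figures were drawn with matplotlib 3.10.9.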

Additional observations from a re-analysis of the deposited data

Results flagged for a closer look

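In 3 of 57 groups tested for the members whose sample values are given, 1 sample lay far from the other 4 (the gap to its nearest neighbour exceeded 0.71 of the group's range), and chance gives about 1 in 20 such groups. Col5a2 stood at 2.38 in control 4, with the next control at 0.74 and the lowest at 0.14. Sparc stood at -1.30 in control 5, with the next control at 0.02 and the highest at 0.36. Vim stood at -2.40 in noncancerous sample 4, with the next cirrhotic sample at -0.71 and the highest at -0.09. These are values only, and the reason for them was not tested.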

How the results depend on the processing

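Across 27 alternatives, limma with Benjamini-Hochberg adjustment called 0 of 53 members in each comparison, and the smallest adjusted p among the named members was 0.0853, for Lox in carcinoma minus cirrhotic with array quality weights.

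The counts at an unadjusted p under 0.05 (4, 2 and 5 in the report) and without overlap (1, 0 and 0) moved with single settings. In cirrhotic minus control, the members without overlap numbered 2 with arrays scaled to the same median, 0 with the numbering trend removed and 2 without control 1 and noncancerous 1. In carcinoma minus control, those at an unadjusted p under 0.05 numbered 1 with a pseudocount of 0.1, 1 with a floor at the 10th percentile and 1 with only these groups fitted, and those without overlap 2 with the trend removed and 1 without control 1 and noncancerous 1. In carcinoma minus cirrhotic, those at an unadjusted p under 0.05 numbered 3 with the floor and 8 with array quality weights, and those without overlap 1 with the trend removed and 1 without control 1 and noncancerous 1. The median over members there turned from 0.191 to -0.0452 with the trend removed. Leaving out 1 sample in turn gave 2 to 8, 0 to 4 and 3 to 7 at an unadjusted p under 0.05, and 1 to 3, 0 to 1 and 0 to 4 without overlap. Without normalization between arrays, the median of all probes was 0.11, 0.13 and 0.05.

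With replicate number as a block, 3, 1 and 3 members stood at an unadjusted p under 0.05 and 0 were called after adjustment. Between cirrhotic and carcinoma samples, deviations correlated between -0.24 and 0.39 for the same number and between -0.29 and 0.47 for different numbers. These correlations cannot show whether 2 samples came from 1 rat, and the numbers were not taken as a pairing.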
